A study of Homo sapiens with 30 samples.

Results

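The comparison described here set 3 libraries of 22Rv1 cells kept for 8 h in 4 µM KI-ARv-03 against 3 libraries of the same cells kept for 8 h in DMSO, which are 6 of the 30 libraries of the series. The 6 were chosen by their titles alone, with no measured value, and for each gene the transcript of highest summed CPM was kept. 22Rv1 is an established human cell line of castration-resistant prostate cancer. KI-ARv-03 is a CDK9 inhibitor by the title of the series. All cells first took up 800 µM 4-thiouridine (s4U) for 30 min, and 3 libraries were collected then as 0 h. The pulse medium was exchanged for medium that held the compound or DMSO and still contained 800 µM s4U, so the DMSO cells carried the nucleoside as long as the treated ones. Libraries of KI-ARv-03 at 2 h, of KB742 at 1.2 µM for 8 h, of DMSO at 2 and 4 h and of 0 h, 3 each, are used beside them. The compound is taken from the titles, since some other label fields read DMSO throughout. Whether replicates were separate cultures is not stated in the labels, so the spread between libraries may be technical. P-values measure only that spread, which for single genes is pooled over the 30 libraries in 10 groups.

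CDK9 forms, with cyclin T, the kinase P-TEFb, which phosphorylates the C-terminal domain of RNA polymerase II and the pausing factors NELF and DSIF and so releases paused polymerase into elongation. Its inhibition is known to stop the synthesis of most messenger RNAs, and transcripts with a short lifetime are then lost first. SLAM-seq separates new from old RNA: s4U that entered new RNA is alkylated by iodoacetamide and read as a T-to-C conversion. Each gene has 2 measurements here. Its level is a read count scaled to sequencing depth (CPM). It is a share of one library, so an amount of RNA per cell cannot be read from it, nor can fewer cells be told apart from less RNA per cell. Its conversion, deposited as a fraction, is printed as a percentage and is higher where more of a transcript was made after s4U was added.

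The 6 libraries held 4333031 to 7817757 reads by the step size of their CPM values. Reads on the genes kept numbered 1415058 to 3779538, and 11675 to 13638 genes had a read. All 10 epithelial and luminal markers passed the filter on low values, and no basal, endothelial or immune marker did. Of stromal markers 3 of 5 and of neuroendocrine markers 3 of 4 passed, none of them called on level. On conversion 1 stromal marker, COL1A1, was called lower in KI-ARv-03. Replicate 2 of KI-ARv-03 at 8 h stood apart: its mean correlation with replicates 1 and 3 was 0.90, against 0.97 between those 2, and 30.7% of genes lay over 2-fold from the mean of the other 2. By the same measure 1 library at 0 h and 1 of KB742 at 2 h stood apart. GAPDH, a glycolytic enzyme, shows the spread: it stood at 2275, 11526 and 2934 CPM in KI-ARv-03, against 5846, 4125 and 6819.7 CPM in DMSO. Replicate 2 of KI-ARv-03 was the highest of the 6, and the groups overlapped.

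The conversion of the whole library separated the groups. The read-weighted mean over all genes was 0.415%, 0.295% and 0.320% in the KI-ARv-03 libraries, against 0.898%, 1.29% and 1.49% in the DMSO libraries. Every KI-ARv-03 library lay below every DMSO library. The means were 0.343 ± 0.063% and 1.23 ± 0.30% (SD, n = 3 each), a difference of −0.883 percentage points and a ratio of 0.280, with an exact two-sided permutation p of 0.1, the smallest that 3 libraries against 3 allow (0.2 after Benjamini-Hochberg adjustment over 4 comparisons). Without KI-ARv-03 replicate 2, the library that stood apart, the difference was −0.859 points. At 0 h the mean was 0.345 ± 0.060%, so that KI-ARv-03 cells at 8 h differed from the cells collected at the end of the pulse by −0.00198 points (exact permutation p = 1). At 2 h it was 0.396 ± 0.022% in KI-ARv-03 and 0.792 ± 0.123% in DMSO. In DMSO the mean was highest at 8 h, while the KI-ARv-03 means at 2 and 8 h lay close to 0 h. At 4 h the libraries labelled KI-ARv-03 had 1.18%, 0.382% and 0.422%, the first of them above the DMSO mean of 1.08%. They are contrasted with no group here, but the gene-by-gene fits pool their spread with that of the other libraries.

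**Figure D1:**
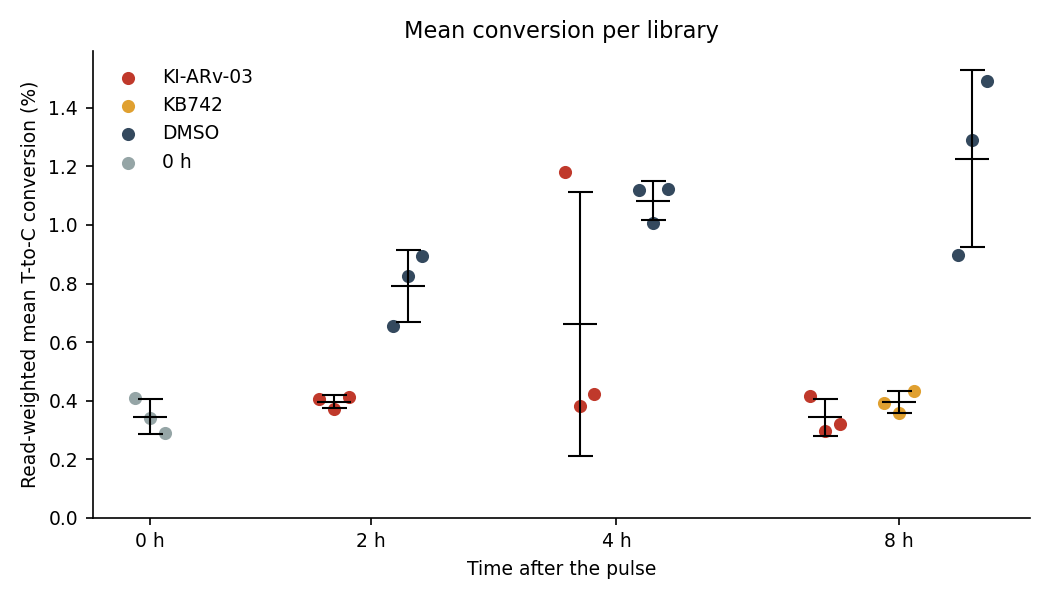
Read-weighted mean T-to-C conversion (%) of each library (points) by hours after the pulse, with group mean and SD (bars, n = 3 each). At 8 h the 3 KI-ARv-03 libraries lie between 0.295% and 0.415%, and the 3 DMSO libraries lie between 0.898% and 1.49%.

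Gene by gene, conversion was lower in KI-ARv-03 at 8 h for 2348 of 6301 genes tested (37.3%) and higher for 1 (0.0159%). The lower calls numbered 1506 without DMSO replicate 2 and 1761 without KI-ARv-03 replicate 2. With only the 6 libraries fitted, which leaves out those at 4 h, they numbered 2292. The median over the genes tested was 0.216% in KI-ARv-03, 0.850% in DMSO and 0.210% at 0 h. The 12 genes with the largest falls that did not overlap were PPP2R2A, TOB2, TMEM127, MAP2K7, SRP19, RBM39, IST1, BICD2, WIPF2, FOXP1, MESD and ZNF3. A ranking by percentage points can only name transcripts that carried much conversion in DMSO. PPP2R2A, a regulatory subunit of protein phosphatase 2A, had 5.23%, 2.67% and 1.30% in the KI-ARv-03 libraries, against 29.8%, 36.4% and 43.8% in the DMSO libraries. Its difference was −33.6 points (adjusted p = 2.52e-16), and it had 0.650% at 0 h (adjusted p = 0.0532 for KI-ARv-03 against 0 h). MAP2K7, a kinase that activates JNK, had 0.989%, 3.26% and 3.13% in KI-ARv-03, against 28.6%, 29.4% and 32.7% in DMSO (adjusted p = 4.41e-13). MESD, a chaperone of LDL receptor family proteins, had 2.49%, 4.17% and 0.705% in KI-ARv-03, against 25.2%, 31.6% and 23.3% in DMSO (adjusted p = 1.8e-10). The 12 were chosen among genes whose groups do not overlap, and in these 3 the difference from 0 h did not pass the test. The conversion left by the compound was not equally low everywhere. RBM39, a splicing factor, had 19.6%, 8.22% and 14.5% in KI-ARv-03, against 35.8%, 40.4% and 44.1% in DMSO and 2.87% at 0 h (adjusted p = 5.34e-09). TOB2, an antiproliferative protein that recruits the CCR4-NOT deadenylase, had 9.66%, 21.2% and 4.0% in KI-ARv-03, against 41.9%, 41.7% and 36.6% in DMSO (adjusted p = 2.88e-08). Both held more conversion in the KI-ARv-03 cells than at 0 h (adjusted p = 2.28e-05 for RBM39 and 0.000669 for TOB2, whose 0 h mean was 1.47%). The 1 gene with higher conversion was TIMM10, a chaperone of mitochondrial protein import, with 2.12%, 2.13% and 1.73% in KI-ARv-03, against 0.195%, 0.414% and 0% in DMSO (adjusted p = 0.00916). Its DMSO values at 8 h lay under those at 4 h (mean 2.59%), and without DMSO replicate 3 its adjusted p was 0.0573.

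**Figure D2:**
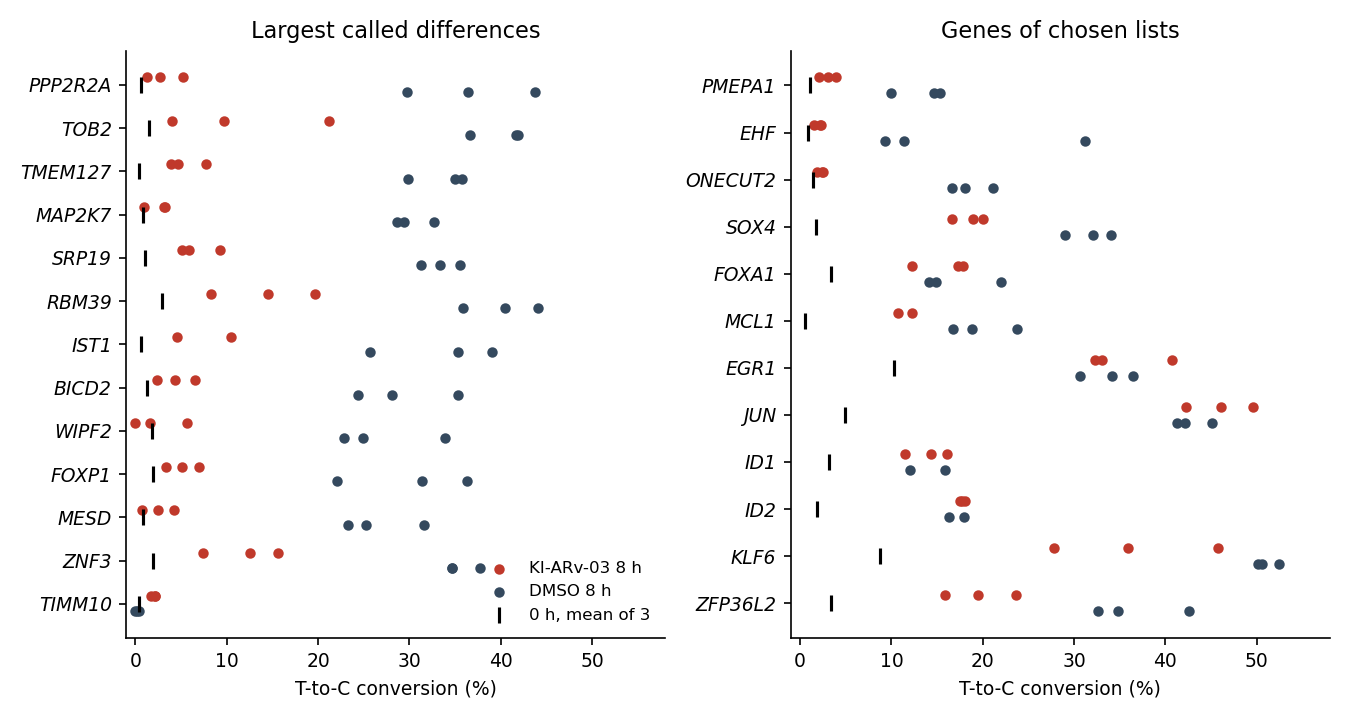
T-to-C conversion (%) of single genes in the 3 KI-ARv-03 libraries (red) and the 3 DMSO libraries (dark) at 8 h, with the mean at 0 h (tick); a value behind fewer than 20 reads is not drawn. Left, the genes with the largest called differences, PPP2R2A to ZNF3 lower and TIMM10 higher in KI-ARv-03; right, 12 genes of chosen lists, picked after their values were seen, of which JUN, EGR1, ID1, ID2 and FOXA1 overlap between the groups.

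The share of genes with lower conversion was larger where conversion in DMSO was higher. Genes were sorted by conversion in the 3 DMSO libraries at 4 h, which are no part of the 8 h comparison, into 4 classes of 1977 genes. In the class with the lowest DMSO conversion (median 0.203% at 4 h) conversion was lower in KI-ARv-03 for 9.39% of the genes tested. The share was 29.1% in the second class, 52.1% in the third and 74.5% in the class with the highest (median 4.56%). In that highest class the median conversion at 8 h was 1.17% in KI-ARv-03, 5.87% in DMSO and 0.615% at 0 h. How far this order follows the size of the values was not tested. Of the 113 genes with lower levels, 97 had a class, and 90 of these were in the highest. They made up 4.55% of that class, against 0.101% to 0.152% of the other classes. Genes with higher levels were most frequent in the third class, with 68 genes or 3.44%, and least frequent in the lowest, with 14 genes or 0.708%. With a minimum of 50 reads behind a conversion, 36 were in the third class and 38 in the highest. The median log2 difference in level was −0.19, 0.01, 0.11 and −0.06 from the lowest class to the highest, and that of the second class was −0.06 with the minimum of 50 reads. Whole classes thus hardly moved on this relative scale, while the called genes were unevenly spread over them.

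**Figure D3:**
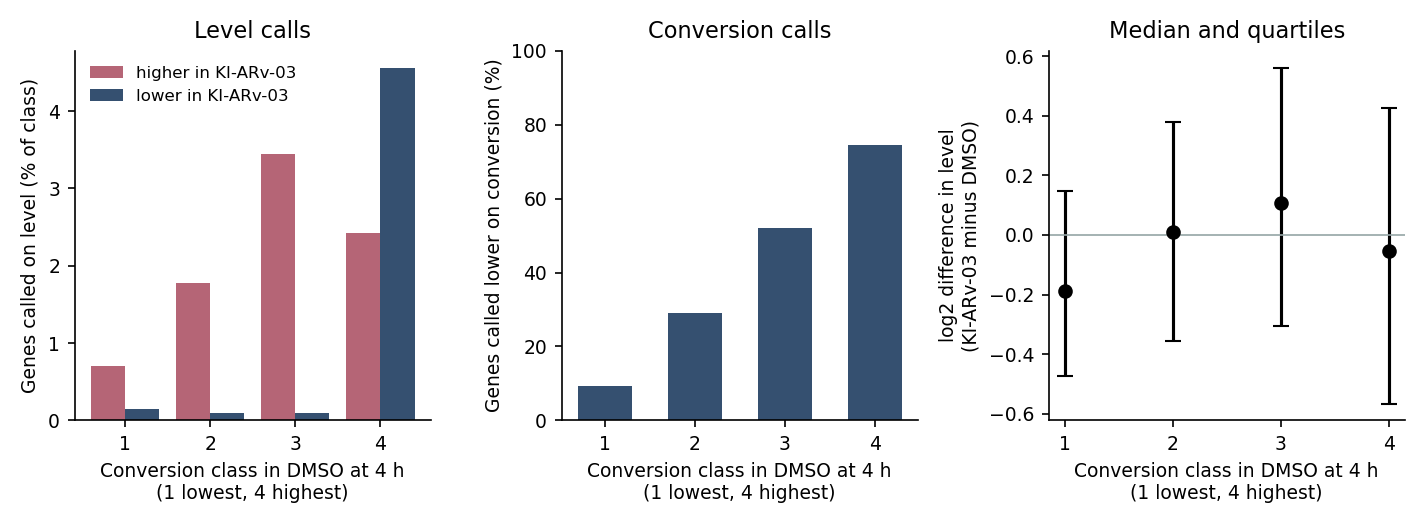
Share of genes called on level (left, %) and on conversion (middle, %), and median log2 difference in level with quartiles (right), by class of conversion in DMSO at 4 h (1 lowest, 4 highest; 1977 genes each). Lower levels reach 4.55% of genes in class 4, while lower conversion climbs through the classes to 74.5%.

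On levels, 222 of 11414 genes tested (1.94%) were higher in KI-ARv-03 at 8 h than in DMSO and 113 (0.990%) were lower, 335 in all (2.93%), at a Benjamini-Hochberg adjusted p under 0.05 in limma. The genes that were higher had a median of 22.2 CPM in KI-ARv-03, 6.94 CPM in DMSO and 34.6 CPM at 0 h. Those that were lower had 6.38 CPM in KI-ARv-03, 27.5 CPM in DMSO and 29.5 CPM at 0 h. By group medians, then, genes that were higher in KI-ARv-03 stood between the DMSO and the 0 h values, and genes that were lower stood under both. Of the 222 higher genes, 74 were called lower than at 0 h and 3 higher. Of the 113 lower genes, 83 were called lower than at 0 h and 4 higher. Rose, rise, fell and fall here mean higher or lower than DMSO at 8 h, not a change since 0 h. The 95% interval around a gene's log2 difference reached 0.86 to either side at the median. The call count rested on single libraries: it was 78 without KI-ARv-03 replicate 3, 112 without DMSO replicate 3, 157 without KI-ARv-03 replicate 1, and 597 without KI-ARv-03 replicate 2, the one that stood apart. When only the 6 libraries were fitted, 3 genes were called, and with library size in place of TMM scaling 381 were higher and 76 lower, on a scale that moved the median of all genes by 0.19.

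The 12 genes with the largest rises were CLK2, CENPE, PIK3CB, WDR3, CDYL2, NOL11, RABGGTB, RNGTT, TNFRSF10D, TNFRSF10B, ARHGAP18 and KIF21A. None of the 12 was called when only the 6 libraries were fitted. CLK2, a kinase that phosphorylates SR splicing factors, stood at 21.1, 37.5 and 14.5 CPM in KI-ARv-03, against 1.24, 4.65 and 1.85 CPM in DMSO. The rule for naming these genes required groups that do not overlap. Its log2 difference was 2.84 ± 0.51 (SE; adjusted p = 0.00206), and its 0 h mean was 38.3 CPM. CENPE, the kinetochore motor of chromosome congression, stood at 10.1, 12.7 and 10.7 CPM in KI-ARv-03, against 0.621, 1.16 and 0.924 CPM in DMSO (log2 difference 2.68 ± 0.58, adjusted p = 0.0110). The DMSO values of CENPE lay near the floor, so their small spread says little about agreement between libraries. At 0 h CENPE had 14.7 CPM. WDR3 and NOL11, both needed to process the small ribosomal subunit RNA, rose together. WDR3 had 19.4, 12.2 and 28.1 CPM in KI-ARv-03, against 1.86, 3.49 and 1.85 CPM in DMSO (log2 difference 2.58 ± 0.44, adjusted p = 0.00106). RNGTT, the enzyme that caps nascent messenger RNA, had 15.8, 7.93 and 17.4 CPM in KI-ARv-03, against 4.34, 2.71 and 0 CPM in DMSO (log2 difference 2.37 ± 0.46, adjusted p = 0.00354). PIK3CB encodes a catalytic subunit of phosphoinositide 3-kinase and had a log2 difference of 2.60 ± 0.46. TNFRSF10B, the death receptor for TRAIL, had 10.9, 16.4 and 16.9 CPM in KI-ARv-03, against 1.86, 5.43 and 0.924 CPM in DMSO (log2 difference 2.24 ± 0.38, adjusted p = 0.00106). TNFRSF10D, a decoy receptor for the same ligand, had 23.1, 27.5 and 33.5 CPM in KI-ARv-03, against 9.31, 9.30 and 0.924 CPM in DMSO (log2 difference 2.28 ± 0.47, adjusted p = 0.00619). DMSO replicate 3 was the lowest of the 6 libraries for TNFRSF10D, as it was for PIK3CB, WDR3, CDYL2, NOL11, RNGTT, TNFRSF10B, ARHGAP18 and KIF21A. It had the fewest reads of the 6 libraries, and its values for WDR3, RNGTT, TNFRSF10B and TNFRSF10D lay near the floor. Without it the adjusted p was 0.0547 for TNFRSF10D, 0.130 for ARHGAP18 and 0.139 for RABGGTB. Without KI-ARv-03 replicate 3 it was 0.0519 for CENPE, 0.0519 for TNFRSF10D, 0.115 for ARHGAP18 and 0.266 for RABGGTB, and RABGGTB was also lost without KI-ARv-03 replicate 1 (0.102) or DMSO replicate 1 (0.146). RABGGTB was lost too with no filter, a pseudocount of 5, edgeR or the replicate block, and ARHGAP18 with edgeR.

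**Figure D4:**
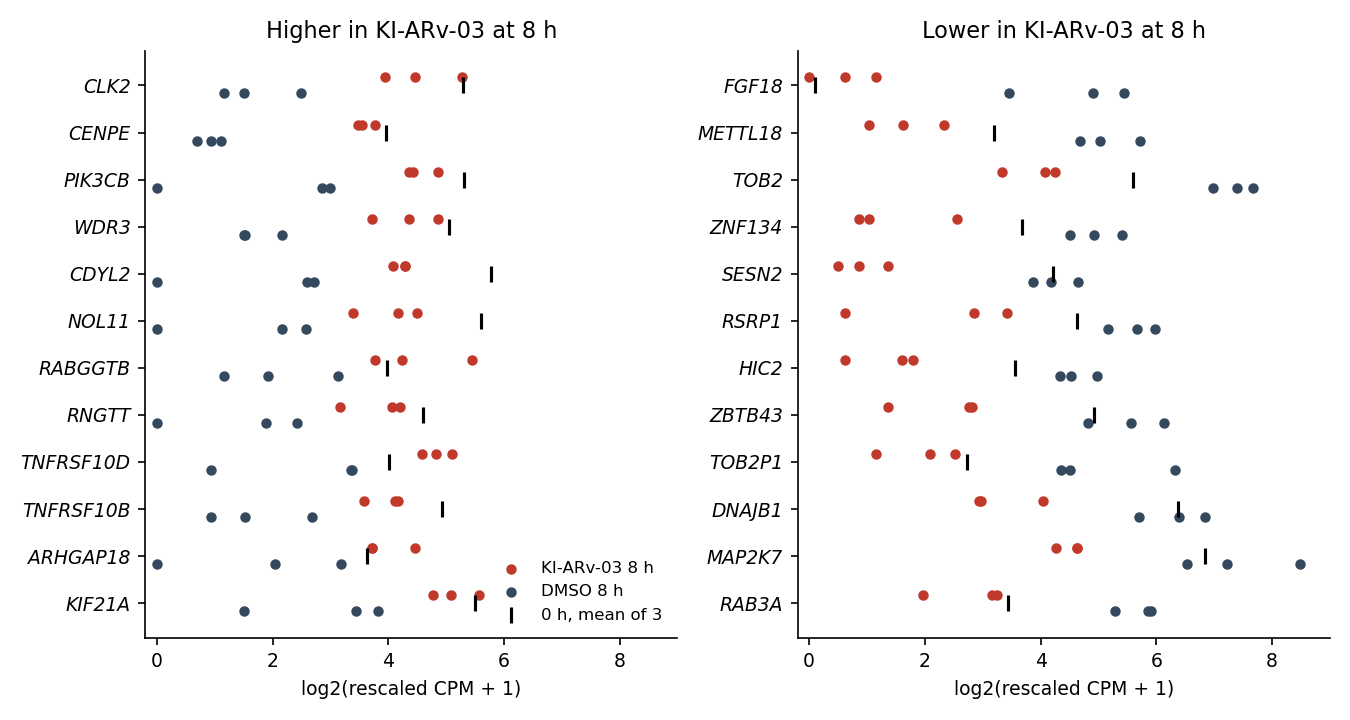
Level, as log2 of rescaled CPM plus 1, of non-overlapping called genes at 8 h. Left, the 12 genes furthest above DMSO, and right, the 12 furthest below it. Red points are the 3 KI-ARv-03 libraries, dark points the 3 DMSO libraries, and the tick is the mean at 0 h. By the rule of choice KI-ARv-03 and DMSO libraries do not overlap in any of the 24. The 0 h mean of FGF18 (0.0680 CPM) lies with the KI-ARv-03 libraries.

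The 12 genes with the largest falls were FGF18, METTL18, TOB2, ZNF134, SESN2, RSRP1, HIC2, ZBTB43, TOB2P1, DNAJB1, MAP2K7 and RAB3A. FGF18, a secreted fibroblast growth factor, stood at 1.21, 0.529 and 0 CPM in KI-ARv-03, against 9.93, 29.1 and 42.5 CPM in DMSO (log2 difference −4.01 ± 0.47, adjusted p = 1.25e-05). At 0 h it had 0.0680 CPM, so it was near 0 both before treatment and in the treated cells. METTL18, which methylates a histidine of ribosomal protein, stood at 4.05, 1.06 and 2.07 CPM in KI-ARv-03, against 24.8, 31.8 and 51.8 CPM in DMSO (log2 difference −3.48 ± 0.39, adjusted p = 6.81e-06). TOB2 stood at 15.8, 18 and 9.09 CPM in KI-ARv-03, against 126, 167 and 204 CPM in DMSO (log2 difference −3.47 ± 0.36, adjusted p = 2.75e-06). TOB2 therefore fell on both measures, and each KI-ARv-03 library also lay under its 0 h mean of 47.3 CPM. TOB2P1 is a pseudogene of TOB2, reads may be split between them, and its own fall is uncertain. DNAJB1, an HSP40 co-chaperone, stood at 15.4, 6.87 and 6.61 CPM in KI-ARv-03, against 50.9, 114 and 83.2 CPM in DMSO (log2 difference −3.0 ± 0.37, adjusted p = 2.35e-05). SESN2, a stress-induced regulator of mTORC1, stood at 0.810, 1.59 and 0.413 CPM in KI-ARv-03, against 13.7, 17.1 and 24 CPM in DMSO (log2 difference −3.32 ± 0.52, adjusted p = 0.000449). RSRP1, rich in arginine and serine, and the zinc finger genes ZNF134, HIC2 and ZBTB43 had log2 differences of −3.31, −3.46, −3.28 and −3.19. The call of TOB2P1 was lost without KI-ARv-03 replicate 3 (adjusted p = 0.0669) or DMSO replicate 3 (0.0925), and of the 12 TOB2 alone was called when only the 6 libraries were fitted.

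Promoters of 3 genes that rose are shown because each holds a palindrome bound by basic leucine zipper or helix-loop-helix factors, in capitals. They were picked for holding TGACGTCA or CACGTG. Genes that fell hold these too, CACGTG in KLF6, CCNT1 and PNISR and TGACGTCA in the Mediator subunit gene MED18. Among the largest rises, PIK3CB, WDR3, NOL11 and RNGTT hold neither. The promoters shown are RefSeq sequences of GRCh38.p14, 5′ to 3′ on the strand of the gene. CLK2 lies at chr1:155273455-155273754, CENPE at chr4:103198294-103198593 and CCNL1 at chr3:157160098-157160397, all on the minus strand. Promoters were matched by gene symbol, and may not be those of the transcripts kept for the levels.
CLK2: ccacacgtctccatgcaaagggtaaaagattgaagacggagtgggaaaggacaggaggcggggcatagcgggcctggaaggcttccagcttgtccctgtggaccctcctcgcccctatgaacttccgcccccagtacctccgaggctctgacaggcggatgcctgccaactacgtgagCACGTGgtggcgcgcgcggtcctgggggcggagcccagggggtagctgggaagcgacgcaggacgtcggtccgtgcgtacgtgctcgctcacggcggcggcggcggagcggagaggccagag
CENPE: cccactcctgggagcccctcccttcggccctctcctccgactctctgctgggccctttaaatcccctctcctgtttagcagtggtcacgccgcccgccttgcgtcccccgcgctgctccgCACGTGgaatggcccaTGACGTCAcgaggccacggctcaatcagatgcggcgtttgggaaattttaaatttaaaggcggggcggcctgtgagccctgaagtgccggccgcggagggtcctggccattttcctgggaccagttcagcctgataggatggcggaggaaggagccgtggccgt
CCNL1: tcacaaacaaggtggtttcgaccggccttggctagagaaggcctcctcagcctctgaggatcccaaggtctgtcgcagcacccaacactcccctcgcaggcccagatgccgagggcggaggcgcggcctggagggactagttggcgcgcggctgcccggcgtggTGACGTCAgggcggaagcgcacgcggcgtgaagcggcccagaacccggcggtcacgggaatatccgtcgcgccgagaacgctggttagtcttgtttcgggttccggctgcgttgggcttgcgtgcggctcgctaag
Of the genes tested on level, 9333 had a promoter in the table, among them 184 of the 222 that rose and 90 of the 113 that fell. TGACGTCA, the cAMP response element, was in 7.61% of the promoters of genes that rose, 4.44% of those that fell and 3.30% of all. CACGTG, the E-box, was in 15.8%, 8.89% and 10.7%, in the same order. Both strands were searched, and the motifs may share end letters where they meet. TATAAA was in 6.52% of promoters of genes that rose, 6.67% of those that fell and 5.01% of all. TGANTCA, an AP-1 type motif, was in 1.63%, 5.56% and 3.90%, and GAANNTTC, part of a heat shock element, in 4.35%, 3.33% and 4.34%. The shares describe the windows and carry no test.

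Of 16 tested genes of P-TEFb, its 7SK regulators and the super elongation complex, 1 rose and 3 fell (median log2 difference 0.25, against 0.00 for all genes). The shares over all genes tested on level were 1.94% higher and 0.99% lower. CCNT1, the cyclin partner of CDK9, stood at 9.72, 9.51 and 7.44 CPM in KI-ARv-03, against 14.9, 33.7 and 27.7 CPM in DMSO (log2 difference −1.35 ± 0.32, adjusted p = 0.0193). MEPCE, which caps and holds 7SK RNA, stood at 8.50, 14.8 and 7.44 CPM in KI-ARv-03, against 43.4, 43.4 and 41.6 CPM in DMSO (log2 difference −2.02 ± 0.50, adjusted p = 0.0249). CDK9 itself had few reads, at 0, 1.06 and 0.826 CPM in KI-ARv-03, against 3.72, 3.88 and 2.77 CPM in DMSO (log2 difference −1.51 ± 0.40, adjusted p = 0.0397). In these 3 genes the groups did not overlap, but each call depended on single libraries and on the settings named. CCNT1 lost its call, by adjusted p, without KI-ARv-03 replicate 1 (0.0503), KI-ARv-03 replicate 3 (0.116), DMSO replicate 2 (0.103) or DMSO replicate 3 (0.129). With values as deposited CCNT1 was not called either. MEPCE lost its call, by adjusted p, without KI-ARv-03 replicate 1 (0.0951), KI-ARv-03 replicate 3 (0.137), DMSO replicate 1 (0.0586), DMSO replicate 2 (0.0597) or DMSO replicate 3 (0.106). With values as deposited MEPCE was not called either. CDK9 lost its call, by adjusted p, without KI-ARv-03 replicate 1 (0.179), KI-ARv-03 replicate 3 (0.0995), DMSO replicate 1 (0.0856), DMSO replicate 2 (0.0914) or DMSO replicate 3 (0.101). With library size only, values as deposited, no filter, a pseudocount of 5, edgeR, DESeq2 or the replicate block CDK9 was not called either. ELL2, a subunit of the super elongation complex, stood at 211, 118 and 190.5 CPM in KI-ARv-03, against 97.4, 84.9 and 68.4 CPM in DMSO (log2 difference 1.02 ± 0.25, adjusted p = 0.0233). ELL2 lost its call, by adjusted p, without KI-ARv-03 replicate 1 (0.124), KI-ARv-03 replicate 3 (0.127) or DMSO replicate 3 (0.0983). HEXIM1, which inhibits P-TEFb, had 7.29, 4.76 and 10.3 CPM in KI-ARv-03, against 5.59, 3.49 and 1.85 CPM in DMSO (log2 difference 0.89 ± 0.34, adjusted p = 0.147), and the groups overlapped. CTR9 and RTF1, subunits of the PAF1 elongation complex, were the 2 of 20 pausing and elongation genes that rose, and none fell. CTR9 had 33.6, 19.6 and 51.6 CPM in KI-ARv-03, against 9.93, 10.1 and 6.47 CPM in DMSO (log2 difference 1.79 ± 0.37, adjusted p = 0.00770). CTR9 lost its call, by adjusted p, without KI-ARv-03 replicate 3 (0.0907). RTF1 lost its call, by adjusted p, without KI-ARv-03 replicate 1 (0.0844) or KI-ARv-03 replicate 3 (0.0907). When only the 6 libraries were fitted, CCNT1, MEPCE, ELL2, CTR9 and RTF1 were not called on level. None of 12 RNA polymerase II subunits and none of 12 other transcription kinases was called on level.

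Among genes of splicing control, of 9 tested CLK kinases and L-type cyclins 4 rose and none fell, with a median log2 difference of 1.54. Over all genes tested on level, 1.94% were higher and 0.99% lower. Relative to all genes the list median was 1.54, against 1.42 with library size only and 0.81 with values as deposited. For KI-ARv-03 replicate 2 alone the list median was 0.67, not taken relative to all genes. CLK1 stood at 9.31, 5.29 and 6.20 CPM in KI-ARv-03, against 0, 2.33 and 0 CPM in DMSO (log2 difference 2.38 ± 0.64, adjusted p = 0.0411). CLK1 lost its call, by adjusted p, without KI-ARv-03 replicate 1 (0.136), KI-ARv-03 replicate 3 (0.125), DMSO replicate 1 (0.105) or DMSO replicate 3 (0.171). With values as deposited, no filter, a pseudocount of 5, edgeR, the replicate block or the mean over transcripts CLK1 was not called either. CCNL2, a cyclin of the splicing kinases, stood at 72.5, 134 and 35.9 CPM in KI-ARv-03, against 16.8, 15.5 and 12 CPM in DMSO (log2 difference 2.19 ± 0.38, adjusted p = 0.00120). CCNL1 stood at 15.8, 8.46 and 15.7 CPM in KI-ARv-03, against 3.72, 3.88 and 3.70 CPM in DMSO (log2 difference 1.54 ± 0.37, adjusted p = 0.0216). CCNL1 lost its call, by adjusted p, without KI-ARv-03 replicate 1 (0.103), KI-ARv-03 replicate 3 (0.125) or DMSO replicate 3 (0.0642). Of 23 SR and related factors 2 rose and 4 fell (median 0.42). PNISR, an SR-related protein, fell on both measures, at 152, 103 and 204 CPM in KI-ARv-03, against 683, 476 and 535 CPM in DMSO (log2 difference −1.92 ± 0.29, adjusted p = 0.000325) and with a conversion of 16.2%, 11.7% and 14.5% in KI-ARv-03, against 26.5%, 26.1% and 30.5% in DMSO (adjusted p = 2.42e-08). SRRM1, a splicing coactivator, stood at 6.88, 6.87 and 12.4 CPM in KI-ARv-03, against 0.621, 1.16 and 0 CPM in DMSO (log2 difference 2.63 ± 0.60, adjusted p = 0.0148). SRRM1 lost its call, by adjusted p, without KI-ARv-03 replicate 3 (0.100) or DMSO replicate 3 (0.0976). With a pseudocount of 5 SRRM1 was not called either. The DMSO values of SRRM1 and CLK1 lay near the floor. RBM39 stood at 118, 57.1 and 134 CPM in KI-ARv-03, against 310.3, 278 and 289 CPM in DMSO (log2 difference −1.58 ± 0.39, adjusted p = 0.0248). RBM39 lost its call, by adjusted p, without KI-ARv-03 replicate 2 (0.0770), DMSO replicate 1 (0.0649), DMSO replicate 2 (0.0551) or DMSO replicate 3 (0.113). With library size only, values as deposited or the mean over transcripts RBM39 was not called either. When only the 6 libraries were fitted, CLK1, CCNL1, CCNL2, PNISR, SRRM1 and RBM39 were not called on level. Conversion was lower in 14 of the 20 SR genes tested for it, against 37.3% of all genes tested. Their median conversion in DMSO was 2.80%, between those of the third and the highest class (1.61% and 5.87%). The shares in those 2 classes were 52.1% and 74.5%.

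Of 20 luminal prostate transcription factors tested on level, 2 rose and 1 fell (median 0.06). Among all genes tested on level, 1.94% rose and 0.99% fell. Conversion was lower in 9 of 13 of the factors, against 37.3% of all genes tested. Their median conversion in DMSO was 7.58%, and the share was 74.5% in the class of highest DMSO conversion. ONECUT2, a lineage factor, had 2.42%, 1.8% and 2.52% in KI-ARv-03, against 16.6%, 18.1% and 21.1% in DMSO (adjusted p = 2.37e-16). TBX3, a T-box repressor, was higher on level than in DMSO, at 34.8, 20.1 and 25.2 CPM in KI-ARv-03, against 4.97, 9.30 and 5.55 CPM in DMSO (log2 difference 1.87 ± 0.24, adjusted p = 3.09e-05). Its 0 h mean was 269.8 CPM, above every library of both groups. Outside the list of transcription factors, KLK3, which encodes prostate-specific antigen, had 16.2, 20.6 and 15.3 CPM in KI-ARv-03, against 33.5, 28.3 and 22.2 CPM in DMSO (log2 difference −0.65 ± 0.46, adjusted p = 0.476). SLC45A3, a prostate solute carrier, had 30.4, 26.4 and 33.5 CPM in KI-ARv-03, against 14.3, 11.6 and 6.47 CPM in DMSO (log2 difference 1.45 ± 0.36, adjusted p = 0.0265). SLC45A3 lost its call, by adjusted p, without KI-ARv-03 replicate 1 (0.0847), KI-ARv-03 replicate 3 (0.125) or DMSO replicate 3 (0.137). With edgeR SLC45A3 was not called either. When only the 6 libraries were fitted, TBX3 and SLC45A3 were not called on level. PMEPA1, a regulator of TGF-beta signalling, had a conversion of 3.89%, 3.0% and 2.04% in KI-ARv-03, against 10.0%, 15.4% and 14.6% in DMSO (adjusted p = 5.59e-12), and every DMSO library lay above every KI-ARv-03 library.

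Of 38 immediate early genes and short-lived regulators tested on level 1 rose and 4 fell (median −0.05). Of all genes tested on level, 1.94% rose and 0.99% fell. Conversion was lower in 7 of 11 of the list, against 37.3% of all genes tested and 74.5% in the class of highest DMSO conversion. The median conversion of the list was 14% in KI-ARv-03, 25.2% in DMSO and 1.86% at 0 h. JUN, a subunit of AP-1, had 49.6%, 42.3% and 46.1% in KI-ARv-03, against 42.2%, 45.1% and 41.3% in DMSO (adjusted p = 0.459) and 4.96% at 0 h. EGR1, a zinc finger factor, had 40.8%, 32.3% and 33% in KI-ARv-03, against 30.7%, 34.2% and 36.4% in DMSO (adjusted p = 0.800) and 10.3% at 0 h. For both genes the KI-ARv-03 and DMSO libraries overlapped, and conversion in KI-ARv-03 was higher than at 0 h (adjusted p = 3.66e-13 for JUN and 7.71e-05 for EGR1). KLF6, a Krueppel-like factor, fell on level, at 46.2, 29.1 and 26.9 CPM in KI-ARv-03, against 153, 129.8 and 351 CPM in DMSO (log2 difference −2.50 ± 0.35, adjusted p = 0.000130), with a conversion of 45.7%, 27.8% and 35.9% in KI-ARv-03, against 50.6%, 52.5% and 50.1% in DMSO (adjusted p = 0.000587). On a log2 scale of conversion the KLF6 conversion call was lost, and its level call was lost when only the 6 libraries were fitted. MYC was near the floor in both groups, at 1.21, 0.529 and 1.24 CPM in KI-ARv-03, against 1.24, 0.388 and 0 CPM in DMSO, with 28.2 CPM at 0 h. MCL1, a short-lived anti-apoptotic protein's gene, had 25.9, 8.46 and 24.4 CPM in KI-ARv-03, against 23, 47.7 and 28.7 CPM in DMSO (log2 difference −0.81 ± 0.40, adjusted p = 0.303) and 187 CPM at 0 h. None of 9 anti-apoptotic and 17 pro-apoptotic genes was called on level. Conversion was lower in 4 of 6 anti-apoptotic and 3 of 5 pro-apoptotic genes tested for it, with list medians in DMSO of 8.02% and 4.12%. MCL1 was lower by 8.32 points (limma, adjusted p = 0.00567), a call lost on a log2 scale of conversion. XIAP, also called, had a conversion of 0.180%, 0.441% and 0.123% in KI-ARv-03, against 3.63%, 8.71% and 7.68% in DMSO (adjusted p = 2.09e-08).

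Of 35 G2/M genes 3 rose and none fell (median 0.60), of 30 S-phase genes 2 rose and none fell, and of 19 G1 genes 1 rose and none fell, beside 1.94% higher and 0.99% lower over all genes tested. CDC6, the replication licensing factor, stood at 14.2, 19.6 and 14 CPM in KI-ARv-03, against 3.10, 4.26 and 1.85 CPM in DMSO (log2 difference 2.08 ± 0.27, adjusted p = 3.82e-05). CCNA2, cyclin A2, stood at 74.1, 50.7 and 103 CPM in KI-ARv-03, against 26.1, 17.4 and 23.1 CPM in DMSO (log2 difference 1.69 ± 0.30, adjusted p = 0.00143), while its conversion was 1.24%, 1.84% and 1.24% in KI-ARv-03, against 3.54%, 4.96% and 6.03% in DMSO (adjusted p = 0.000335). CCNA2 had a higher level and a smaller converted share in each KI-ARv-03 library. Of 25 p53 targets 2 rose and 3 fell. GADD45A, a DNA damage response gene, stood at 5.26, 1.59 and 6.20 CPM in KI-ARv-03, against 24.2, 29.5 and 37.9 CPM in DMSO (log2 difference −2.67 ± 0.49, adjusted p = 0.00236). Of 26 sterol synthesis genes 2 rose and none fell. INSIG1, which retains the sterol sensor in the endoplasmic reticulum, stood at 113, 80.9 and 141 CPM in KI-ARv-03, against 62.1, 54.3 and 38.8 CPM in DMSO (log2 difference 1.09 ± 0.29, adjusted p = 0.0412). INSIG1 lost its call, by adjusted p, without KI-ARv-03 replicate 1 (0.119), KI-ARv-03 replicate 3 (0.227) or DMSO replicate 3 (0.159). With no filter, a pseudocount of 5 or edgeR INSIG1 was not called either. When only the 6 libraries were fitted, CDC6, CCNA2, GADD45A and INSIG1 were not called on level. No gene of 77 cytosolic ribosomal proteins was called, though their median was −0.46, and of 306 zinc finger genes 2 rose and 10 fell. The glycolysis median was −0.34 with no call in 20 genes, and it was 0.35 for KI-ARv-03 replicate 2 alone. Relative to all genes the ribosomal protein median was −0.46, against −0.43 with library size only and −0.36 with values as deposited.

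**Figure D5:**
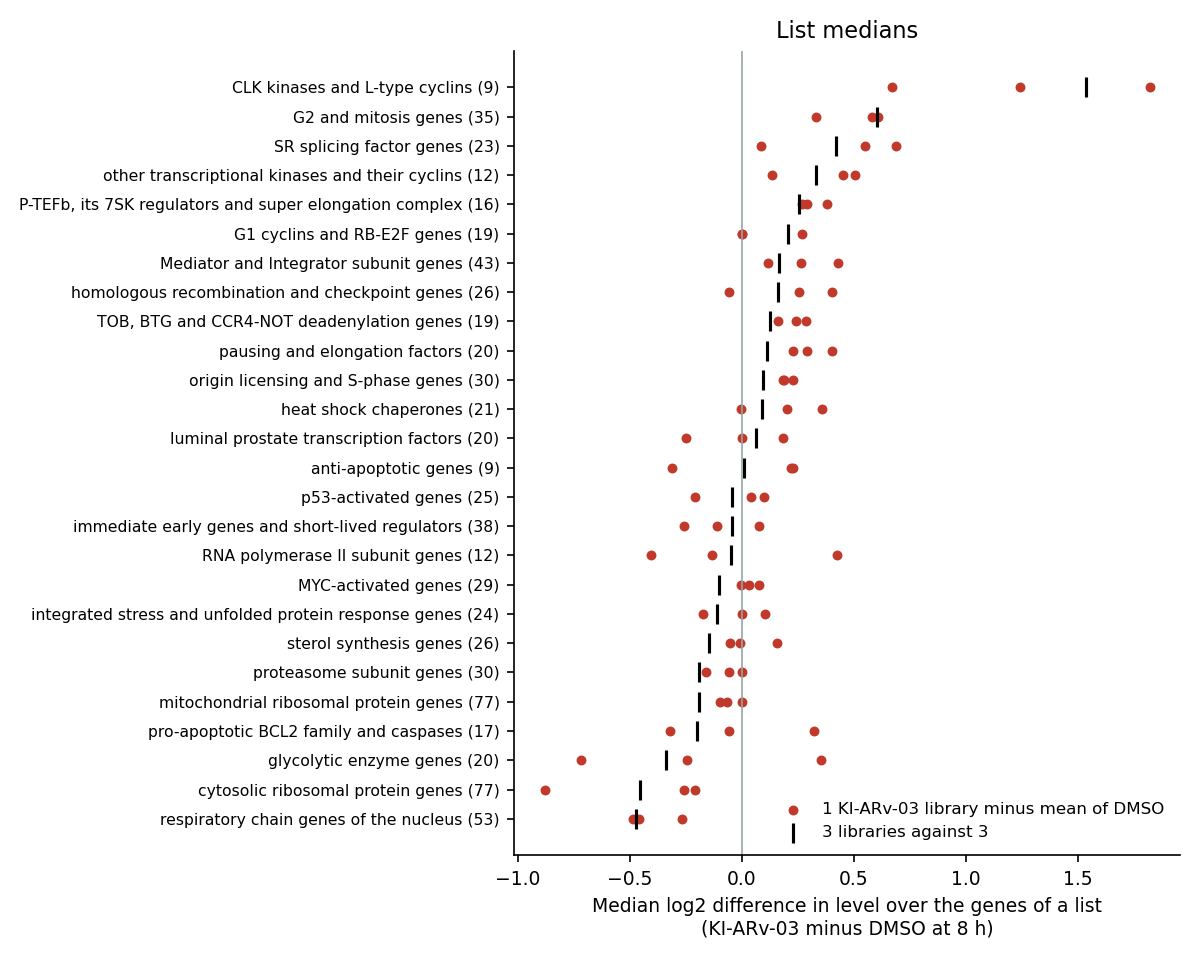
Median log2 difference in level, KI-ARv-03 over DMSO at 8 h, of each gene list (tick) and for each KI-ARv-03 library against the DMSO mean (red points), with the number of genes tested in parentheses. The CLK and L-type cyclin list lies at 1.54 and the ribosomal proteins at −0.46, against 0.00 for all genes.

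Against 0 h, which is also 8 h of s4U away, 1539 of 11414 genes (13.5%) were higher in KI-ARv-03 at 8 h and 2564 (22.5%) lower, 4103 in all (35.9%). With library size alone the split was 180 higher and 3883 lower. Immediate early genes were higher in 1 and lower in 33 of 38 (median −2.50), and luminal transcription factors 15 lower of 20 (median −2.03). Respiratory chain genes had 41 higher of 53 (median 1.26) and ribosomal proteins 53 higher of 77 (median 1.12). FOXA1, a forkhead pioneer factor, had 28.7, 19 and 40.5 CPM in KI-ARv-03, against 21.7, 29.5 and 25 CPM in DMSO and 217 CPM at 0 h. Against DMSO at 8 h the median was −0.05 for the immediate early list and 0.06 for the luminal factors. It was −0.47 for the respiratory chain genes and −0.46 for the ribosomal proteins. For these lists DMSO at 8 h was not tested against 0 h. What the compound and what the time in s4U contributed cannot be told apart from the comparison with 0 h alone. In conversion, 169 of 7350 genes (2.3%) were higher in KI-ARv-03 at 8 h than at 0 h and 6 (0.0816%) lower, 2.38% in all.

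KB742 at 1.2 µM and KI-ARv-03 at 4 µM were given at different doses, so their values are set side by side. The mean conversion at 8 h was 0.343 ± 0.063% in KI-ARv-03 and 0.395 ± 0.038% in KB742 (SD, n = 3 each; difference −0.0516 points, exact permutation p = 0.3). No gene was called between them by limma, on level (0 of 11414, with 240, or 2.1%, at an unadjusted p under 0.05) or conversion (0 of 6798, with 180, or 2.65%). The 95% interval around a level difference, not adjusted for the number of genes, reached 0.86 to either side at the median. Differences of that size and larger could go uncalled after adjustment, and the missing calls do not show that the compounds act alike.

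The response at 8 h was set against that at 2 h by a test of the difference itself. The conversion difference between KI-ARv-03 and DMSO was larger in the negative direction at 8 h for 349 of 6205 genes (5.62%) and the other way for 1 (0.0161%), 5.64% in all. On a scale of log2(percent + 0.1), 1 gene was called. On level 1 of 11414 genes (0.00876%) passed, IST1, a regulator of ESCRT-III. It stood at 10.5, 6.34 and 10.7 CPM in KI-ARv-03, against 56.5, 72.5 and 79.5 CPM in DMSO at 8 h, and averaged 28.7 CPM in KI-ARv-03 and 34.8 CPM in DMSO at 2 h. Its adjusted p was 0.0430, but 0.0714 with the replicate block and 0.0512 to 0.294 on leaving out any 1 of the 12 libraries, and it also missed the threshold with DESeq2 size factors, library size only, values as deposited or only the groups of the contrast.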

How the data were processed

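SLAM-seq of 22Rv1 cells was deposited as 1 table with a level and a conversion per transcript and library. The levels are a normalised signal, headed CPM in the deposited table. Per the submitters' processing notes the build was hg19; aligner and caller: not given in the sources used here. All values were whole multiples of 1 read within 0.05, so reads were recovered. The conversions are a fraction per transcript as deposited by the authors, with no numerator or denominator, so no interval of counting error could be given. Rows with no gene symbol held 0.480% of the signal.

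Of 22355 genes, 17164 had a read; 11414 passed edgeR's filterByExpr (minimum count 10). Levels were rescaled by TMM and tested as log2(value + 1) with limma 3.58.1 (trend) in R 4.3.3, over 30 libraries in 10 groups. A log2 difference on this scale understates the change of low genes. For conversion, limma was run on arcsin(sqrt(fraction)), for values behind 20 or more reads. A gene was called where its p, adjusted by Benjamini-Hochberg across every tested gene, was under 0.05. Mean conversion was compared by exact two-sided permutation in Python 3.11.15. Errors of log2 differences are SE. Alternatives included edgeR 4.0.16 and DESeq2 1.42.0 on recovered reads, other scalings, pseudocounts, filters and leaving out each library. The fits were tested on simulated data.

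The genes named were the 12 largest differences each way in level (called, not overlapping, at least 10 CPM in the higher group), the 12 largest falls in conversion, and members of the gene lists. Members and lists were chosen with earlier results of these data known. In the 6 groups checked, no 2 replicates agreed within sampling noise. Results for some genes are not reported here.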

Additional observations from a re-analysis of the deposited data

Results flagged for a closer look

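The effect of KI-ARv-03 against DMSO differed between 8 h and 2 h, by a test of the difference itself, for the genes below, on the scales of the main tests. On a scale of log2(percent + 0.1) none of the 6 conversion differences passed (adjusted p 0.247 to 0.944). PPP2R2A had a conversion of 3.06% in KI-ARv-03 and 36.7% in DMSO at 8 h, and 1.44% in KI-ARv-03 and 4.03% in DMSO at 2 h, a difference of effects of −31.01 points (limma, adjusted p = 4.61e-09). For TMEM127, a transmembrane regulator of mTOR signalling, the difference of effects was −24.6 points (adjusted p = 0.000879). For DCAF5, a substrate receptor of CUL4 ligases with a value in 2 KI-ARv-03 libraries at 8 h, it was −21.92 points (adjusted p = 0.00238). BICD2, a dynein adaptor, had −21.54 points (adjusted p = 0.000177), and FOXP1, a forkhead repressor, had −21.3 points (adjusted p = 0.000496). MAN2A2, a Golgi mannosidase, went the other way, at 2.221 points (adjusted p = 0.0199), with 0.622% in KI-ARv-03 and 0.414% in DMSO at 8 h, and 0.213% in KI-ARv-03 and 2.23% in DMSO at 2 h. On level IST1 passed, with a difference of effects of −2.516 on the log2 scale (SE 0.435, adjusted p = 0.0430). The IST1 call was lost with the replicate block (adjusted p = 0.0714), and on leaving out any 1 of the 12 libraries (0.0512 to 0.294). MAN2A2 lost its call with a minimum of 50 reads (0.0559) and without DMSO 8 h replicate 3 (0.0793), DMSO 2 h replicate 1 (0.0588) or KI-ARv-03 2 h replicate 2 (0.0574) or 3 (0.0673).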

How the results depend on the processing

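At 8 h the level calls depended on the processing more than the lower conversion calls did. Signs were followed only for named genes and called list members, 77 on level and 289 on conversion. None of these changed sign under the alternatives run, and other genes were not followed. Why the level calls depended more was not tested. Against 335 level calls (222 higher, 113 lower), 381 were higher with library size only, 43 lower with values as deposited, 132 higher with a pseudocount of 5 and 139 higher with edgeR. With only the 6 libraries fitted, 3 were called, 0 higher and 3 lower (1319 at an unadjusted p under 0.05). Leaving out 1 library gave 78 to 597 calls, 37 to 394 higher and 41 to 203 lower. Without the 3 libraries that stood apart, an alternative chosen after seeing the data, there were 1020 calls, 665 higher and 355 lower. Of values as deposited, 87.1% of calls were higher, against 66.3%, and the median of all genes moved by 0.25. Against 0 h, 2733 genes were called when only those groups were fitted, against 4103. Against KB742, 3 were called with no filter, and 0 to 1 on leaving out a library. The 1 level call between times became 0 with DESeq2 size factors, library size only, values as deposited or only its groups, 2 with no filter, 24 with DESeq2, 4 without the libraries that stood apart, and 0 to 7 on leaving out a library.

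Lower conversion was called for 1506 to 2257 genes on leaving out a library, and the 1 higher call became 0 with a minimum of 50 reads and 2 on a log2 scale. The 350 conversion calls between times became 232 with a minimum of 50 reads, 1 on a log2 scale and 185 to 618 on leaving out a library. The mean conversion difference stayed between −0.75 and −1.05 points on leaving out a library. Replicate numbers did not pair the samples (correlations of deviations between KI-ARv-03 and DMSO at 8 h of −0.00, −0.36 and −0.29). With the replicate block 280 level calls were made, 178 higher and 102 lower, 2312 genes had lower conversion, the mean conversion difference was −0.883 points (exact sign-flip p = 0.25), and the level call between times was lost, leaving 0.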
